A study of Mus musculus with 4 samples.

Results

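Globin genes and genes that direct or mark the red cell lineage were followed in neutrophils sorted from the bone marrow of Srf KO and WT mice. The set held 9 genes, taken by name from a table of 23284: the adult alpha globin genes Hba-a1 and Hba-a2, the adult beta globin genes Hbb-b1 and Hbb-b2, the carbonic anhydrase genes Car1 and Car2, the transcription factor genes Gata1 and Klf1, and the erythropoietin receptor gene Epor. A row was found for each. Of the 9 rows, 7 carried that name alone, and the rows of Hba-a1 and Hbb-b1 carried the name of their partner copy as well. The labels describe the cells as mature, with Gr1 high, 7/4 high and SSC high staining and scatter, a gate for granular neutrophils. There were 2 Srf KO samples, whose genotype removes serum response factor, a transcription factor of the actin and immediate-early programmes, and 2 WT samples. The promoter that drove the deletion, and the strain and age of the mice, are not given in the sources used here. The authors' deposited table gave 1 level per genotype and gene in FPKM, the fragments mapped to a transcript scaled to its length and to the library, pooled over the samples of a genotype. Depth is therefore unknown, and no spread between samples could be shown. Nothing in the labels says that the samples of a genotype came from separate animals, so the error behind the authors' test may be technical.

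Haemoglobin, the oxygen carrier of red cells, is built from alpha and beta globin chains, each made from closely similar adult gene copies. In red cell precursors GATA1 and KLF1 switch on globin and other red cell genes, erythropoietin acts through its receptor to keep the cells alive, and carbonic anhydrases convert carbon dioxide to bicarbonate. Globin messenger RNA accumulates to very high levels in these cells and persists into the reticulocyte, after the nucleus is lost. Red cell precursors share the bone marrow with developing granulocytes, and textbook accounts do not list globin among the products of neutrophils.

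Within their coding sequences the globin copies can hardly be told apart by short reads, as the GENCODE M21 transcripts (GRCm38, the assembly of mm10) show. Reads also fall on the untranslated ends, which were not compared in full and can differ more. The alpha copies differed at 1 of 429 coding bases (C381T, Hba-a1 base first, counted from 1 at the A of the start codon). The beta copies Hbb-bs and Hbb-bt, the adult beta genes of the reference strain, differed at 1 of 444 (C417T, Hbb-bs base first). The stretches around these bases are printed 5′ to 3′ on the coding strand, coding bases 361 to 401 for alpha and 397 to 437 for beta, with the differing base in capitals.
Hba-a1: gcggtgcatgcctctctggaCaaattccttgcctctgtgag
Hba-a2: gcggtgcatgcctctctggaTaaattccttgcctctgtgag
Hbb-bs: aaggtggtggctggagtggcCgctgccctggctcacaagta
Hbb-bt: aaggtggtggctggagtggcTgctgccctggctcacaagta

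The alpha promoters were as alike as the coding sequences, sharing an unbroken run of 297 bases of the 300-base windows that RefSeq (GRCm38.p6) gives for each gene, 250 bases before the start to 50 after it. The longest run shared by the beta windows was 14 bases. The windows of Hba-a1 (chr11:32283422-32283721, plus strand) and Hbb-bs (chr7:103827879-103828178, minus strand) stand for the globins here. Capitals mark 3 motifs, each searched on both strands. They are CACCC (the core of the sites that KLF1 binds), the promoter element CCAAT (bound by NF-Y) and AGATAA, a form of the GATA factor site.
Hba-a1: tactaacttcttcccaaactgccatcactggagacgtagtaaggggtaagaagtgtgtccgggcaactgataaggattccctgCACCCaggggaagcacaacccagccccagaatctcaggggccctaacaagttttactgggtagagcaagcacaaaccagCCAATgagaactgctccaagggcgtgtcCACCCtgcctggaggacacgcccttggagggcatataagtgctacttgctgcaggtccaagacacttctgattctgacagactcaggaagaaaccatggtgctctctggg
Hbb-bs: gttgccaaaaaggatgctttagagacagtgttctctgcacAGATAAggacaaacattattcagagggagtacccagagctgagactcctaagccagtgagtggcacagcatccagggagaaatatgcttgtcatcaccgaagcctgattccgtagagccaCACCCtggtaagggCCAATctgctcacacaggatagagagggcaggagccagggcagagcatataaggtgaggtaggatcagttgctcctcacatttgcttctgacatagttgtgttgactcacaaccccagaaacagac

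CACCC was found in all 7 windows examined, those of the 4 globin genes Hba-a1, Hba-a2, Hbb-bs and Hbb-bt and of Klf1, Epor and Gata1, and in 57.5% of 32851 windows of the same length in the RefSeq table. CCAAT was found in 5 of the 7 and in 37.4% of all windows. AGATAA was found in 2 of the 7, Epor and Hbb-bs, and in 11.2% of all. Other forms of the GATA factor site were not searched, so a window without AGATAA can still hold such a site. The windows of Hba-a1 and Hba-a2 hold TGATAA, and that of Klf1 holds it on the opposite strand. A CArG box, the site class of SRF, was found in 0 of the 7 and in 1.63% of all windows. No match shared a base with another. These are matches of letters in a short window and not bound sites.

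Where the globin rows lie also bears on their values. Both alpha transcripts were placed at both alpha positions of mm10, chr11:32283672-32284493 and chr11:32296489-32297310. The transcripts named Hbb-b1 and Hbb-b2 in the table were both placed at chr7:103812524-103813923, where GENCODE annotates 1 gene, Hbb-bt, on the minus strand with 3 exons. RefSeq files the transcript behind the Hbb-b1 row under Hbb-bt. The other adult beta gene of the reference strain, Hbb-bs, is in the table as Beta-s, at chr7:103826523-103827928, and its values are given beside those of the members.

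The deletion and the sort were checked first. In the authors' deposited table Srf stood at 0.439 FPKM in Srf KO and 13.7 FPKM in WT. Of 12 neutrophil markers, 6 were tested, and they lay between 196 and 17117 FPKM in Srf KO and between 129 and 24805 FPKM in WT, while 5 more were left untested for too many reads and Ly6g was not analysed here. Of 10 erythroid markers, 9 were tested and none was at 0. These 9 lay between 0.298 and 4.26 FPKM in Srf KO and between 0.0934 and 2.95 FPKM in WT. These erythroid markers, which leave out the globins, thus lay far below the neutrophil markers in both genotypes. Beta-s, at 207 FPKM in Srf KO and 160 FPKM in WT in the authors' deposited table, lay within the neutrophil range. Of the 6 tested neutrophil markers, 1 was called higher and 3 lower. They summed to 19090 FPKM in Srf KO and 28717 FPKM in WT. Most of each sum came from the single most abundant marker, at 17117 FPKM in Srf KO and 24805 FPKM in WT, which was not called.

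Adult globin transcripts were abundant in both genotypes, and none of the 4 globin rows was called different at an adjusted p of at most 0.05, whereas all 5 other genes were called higher in Srf KO. Of the 9 members, 5 were called higher and 0 lower, and all 9 had the larger level in Srf KO. Over all 12634 genes that the authors tested, 35.5% were called, 17.7% higher and 17.8% lower in Srf KO. Of these genes, 6794 had a log2 fold of Srf KO over WT above 0. The median log2 fold of Srf KO over WT was 0.74 over the 4 globin rows and 2.03 over the other 5 members, against 0.08 over all genes tested. The 0.74 counts Hbb-b1 in full, though its fold of 1.35 had a standard error of 7.41 derived from its statistic. With their levels summed, the 4 globin rows had a log2 fold of 0.40. The globin rows share reads and the members were not drawn at random, so these counts are a description. In RNA from many sorted cells, more cells of a type and more of its RNA per cell cannot be told apart.

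**Figure D1:**
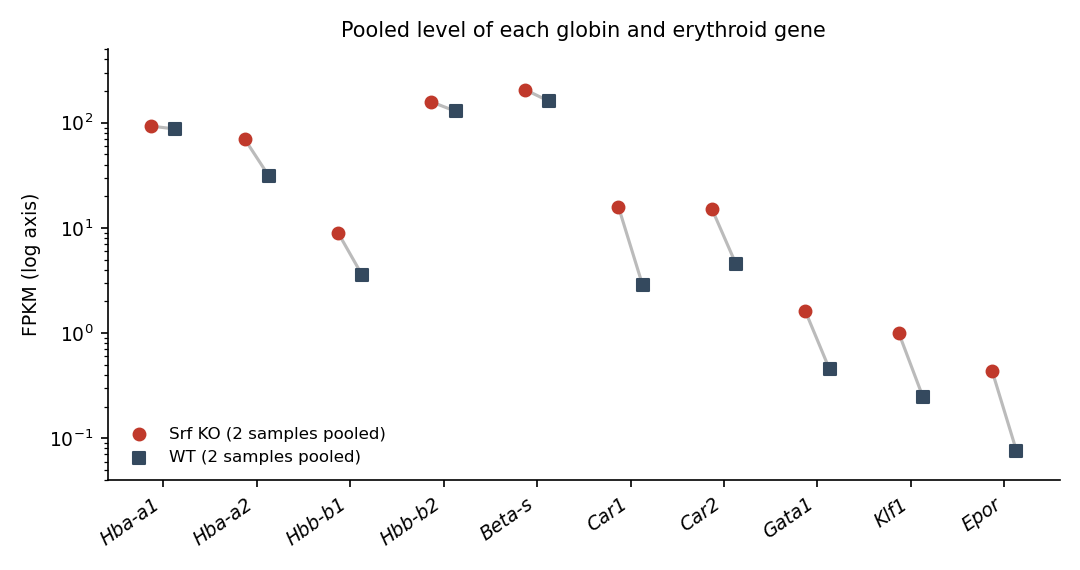
Level of each gene in FPKM on a log axis, 1 pooled value per genotype, for Srf KO (circles) and WT (squares); Beta-s is the further beta globin gene of the table. The circle lies above the square for every gene, narrowly for Hba-a1 (92.9 and 87.2 FPKM) and widely for Car1 (16.0 and 2.84 FPKM).

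Among the alpha globins, Hba-a1 stood at 92.9 FPKM in Srf KO and 87.2 FPKM in WT in the authors' deposited table. Its log2 fold was 0.09 ± 0.26, where ± is a standard error derived from that fold and its statistic, with an adjusted p of 0.816 in the authors' deposited table. Hba-a2 stood at 70.3 FPKM in Srf KO and 31.1 FPKM in WT in the authors' deposited table. Its log2 fold of 1.18 ± 0.50 had an unadjusted p of 0.0179 and an adjusted p of 0.0502 in the authors' deposited table, just outside the threshold. Hba-a2 thus made up 43.1% of the alpha signal in Srf KO and 26.3% in WT, but the copies differ at 1 coding base and how the reads were divided between them was not tested.

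The gene rows of the alpha globins hold only 1 of their placements. Both rows give the second position as their locus, yet their levels are those of the transcript rows at the first position. At the second position the authors' deposited table gave Hba-a1 93.6 FPKM in Srf KO and 85.9 FPKM in WT, and Hba-a2 64.7 FPKM in Srf KO and 30.6 FPKM in WT. Each transcript thus had nearly the same level at both positions, and the gap between the genotypes was wider for Hba-a2 at each. The positions are near-identical in sequence and can draw on the same reads, so their rows are not separate observations.

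Among the beta globins, Hbb-b2 stood at 158 FPKM in Srf KO and 128 FPKM in WT, with a log2 fold of 0.30 ± 0.29 and an adjusted p of 0.446, in the authors' deposited table. Hbb-b1, read at the same position, stood at 9.02 FPKM in Srf KO and 3.54 FPKM in WT in the authors' deposited table. Its log2 fold of 1.35 carried an implied standard error of 7.41, so that row says almost nothing on its own about a difference. The globin row with the highest level was Beta-s, at 207 FPKM in Srf KO and 160 FPKM in WT, with a log2 fold of 0.37 ± 0.20 and an adjusted p of 0.131 in the authors' deposited table. Within the beta rows Beta-s held 55.3% of the signal in Srf KO and 54.8% in WT.

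The copies were also summed, since reads within the coding sequence are hard to assign to one of them. The sum can still shift with that assignment, because FPKM scales each copy to its own length. GENCODE gives 699 bases for Hba-a1 and 554 for Hba-a2, while the lengths behind the deposited FPKM are not given. The alpha rows summed to 163 FPKM in Srf KO and 118 FPKM in WT, a ratio of 1.38. The authors' deposited table of coding sequences holds the same alpha sum as a row of its own, with a log2 fold of 0.46 ± 0.24 (95% interval -0.02 to 0.94) and an unadjusted p of 0.0579. That table's row for Hbb-b1 and Hbb-b2 together gave 167 FPKM in Srf KO and 132 FPKM in WT, a log2 fold of 0.34 ± 0.20 (95% interval -0.05 to 0.73), with an unadjusted p of 0.0903 in the authors' deposited table. Both sums were marked as not tested by the authors and have no adjusted p of use. The error of the beta sum, 0.20, stood against 7.41 for the Hbb-b1 row within it.

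All 4 member rows together came to 330.2 FPKM in Srf KO and 250.3 FPKM in WT, a ratio of 1.32. With Beta-s the sums were 537 and 410.2 FPKM for Srf KO and WT, a ratio of 1.31. The alpha to beta ratio over these rows was 0.437 in Srf KO and 0.406 in WT. Counting both alpha placements it was 0.860 in Srf KO and 0.805 in WT, so its size depended on how many placements were counted. After the folds were adjusted for a trend on transcript length over all genes, the log2 fold of the member sum was 0.031, against 0.40 before, and that of Hba-a1 was -0.28, against 0.09 before. The adjustment thus changed the size of the globin fold and not a call, since no globin row was called before it and none of the 3 member rows with a matched length (all but Hbb-b2) after it, and the 5 called members stayed called.

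**Figure D2:**
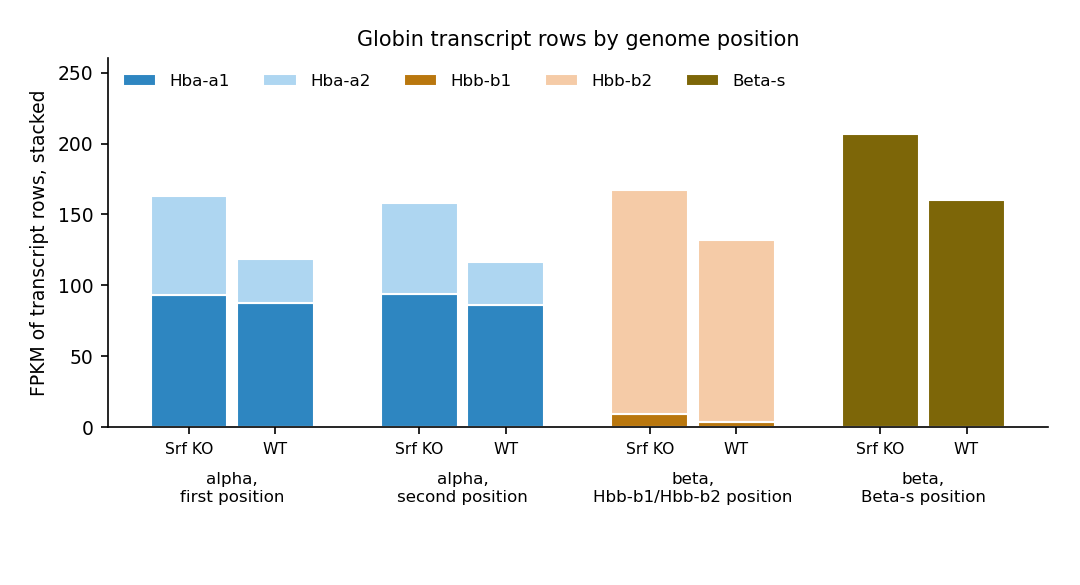
Stacked FPKM of the globin transcript rows at each genome position, Srf KO bar left of the WT bar, 1 pooled value each. The Hba-a1 segment is of similar height in both genotypes and the Hba-a2 segment is taller in Srf KO (70.3 and 31.1 FPKM at the first position), while Hbb-b1 is a thin slice of its position.

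Globins other than the adult alpha and beta genes were at or near 0. The theta-type genes Hbq1b and Hbq1a stood at 0.205 and 0.136 FPKM in Srf KO, and at 0.0873 and 0.119 FPKM in WT, in the authors' deposited table. The embryonic beta-like gene Hbb-y was at 0.0227 FPKM in Srf KO and listed at 0 in WT, and Hba-x, Hbb-bh1 and Hbb-bh2 were listed at 0 in both genotypes.

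Carbonic anhydrases 1 and 2 were called higher in Srf KO, several-fold each. Car1 (mm10 chr3:14766214-14808365, minus strand), a marker of erythroid cells in the marrow, stood at 16.0 FPKM in Srf KO and 2.84 FPKM in WT in the authors' deposited table. Its log2 fold was 2.49 ± 0.27, or 5.61-fold, with an adjusted p listed as 0 in the authors' deposited table. Car2 (chr3:14886426-14900770, plus strand), which is used more widely, by osteoclasts and other cells as well as red cells, stood at 15.2 FPKM in Srf KO and 4.50 FPKM in WT in the authors' deposited table. Its log2 fold was 1.76 ± 0.23, or 3.38-fold, with an adjusted p of 2.92e-12 in the authors' deposited table. Together they equalled 9.44% of the sum of the 4 globin rows in Srf KO and 2.93% in WT.

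Car1 has a pair of start sites in the mouse, a distal one used in erythroid cells and a proximal one used in colon. By GENCODE's own match to RefSeq, the transcript with the distal start at base 14808365 and 8 exons held 16.0 FPKM in Srf KO and 2.84 FPKM in WT in the authors' deposited table. The transcript from the proximal start, 29.9 kb downstream at base 14778459, was listed at 0 in Srf KO and at 3.61e-05 FPKM in WT in the authors' deposited table. All but a trace of the Car1 signal was thus assigned to the distal start in both genotypes.

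The other carbonic anhydrases were low. Of 16 carbonic anhydrase genes in the table, 9 were tested, 3 were called higher and 0 lower. The shares over all genes tested were 17.7% higher and 17.8% lower. Besides Car1 and Car2 the third was Car13, picked out after its values were seen, at 0.926 FPKM in Srf KO and 0.485 FPKM in WT with a log2 fold of 0.93 ± 0.34 (adjusted p = 0.0208) in the authors' deposited table. Car9, a membrane form induced by hypoxia, was the next most abundant after Car1 and Car2, at 1.14 FPKM in Srf KO and 0.761 FPKM in WT (log2 fold 0.58 ± 0.33, adjusted p = 0.154) in the authors' deposited table.

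The transcription factors of the lineage and the erythropoietin receptor were near the bottom of the range of tested genes, and were called higher in Srf KO. Their promoter windows are printed on the gene's strand with the same motifs in capitals, for Klf1 (chr8:84901732-84902031, plus strand), Epor (chr9:21963527-21963826, minus strand) and Gata1 (chrX:7967861-7968160, minus strand).
Klf1: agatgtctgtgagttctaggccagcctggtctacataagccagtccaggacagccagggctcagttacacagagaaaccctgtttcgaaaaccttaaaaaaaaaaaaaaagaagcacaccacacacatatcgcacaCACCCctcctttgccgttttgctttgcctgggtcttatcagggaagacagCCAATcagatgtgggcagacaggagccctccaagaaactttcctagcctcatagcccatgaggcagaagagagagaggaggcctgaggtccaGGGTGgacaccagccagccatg
Epor: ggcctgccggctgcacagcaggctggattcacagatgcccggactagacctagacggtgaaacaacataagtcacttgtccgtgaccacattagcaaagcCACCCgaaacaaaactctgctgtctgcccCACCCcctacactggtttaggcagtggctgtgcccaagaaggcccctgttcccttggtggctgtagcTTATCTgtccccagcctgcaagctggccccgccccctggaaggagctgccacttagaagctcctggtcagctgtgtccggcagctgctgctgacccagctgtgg
Gata1: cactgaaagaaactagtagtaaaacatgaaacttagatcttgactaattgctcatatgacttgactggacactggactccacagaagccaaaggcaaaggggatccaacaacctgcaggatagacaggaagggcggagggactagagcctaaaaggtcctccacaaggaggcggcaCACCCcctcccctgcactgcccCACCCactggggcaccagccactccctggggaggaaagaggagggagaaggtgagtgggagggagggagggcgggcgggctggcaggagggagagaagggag

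Each of these windows held CACCC at 2 places. That of Epor had its AGATAA on the opposite strand, with its first base at position -54 from the start. That of Klf1 had a CCAAT at position -64.

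Gata1 (chrX:7959260-7967815), which encodes the master regulator of erythroid and megakaryocyte genes and is also active in eosinophils, basophils and mast cells, stood at 1.62 FPKM in Srf KO and 0.451 FPKM in WT in the authors' deposited table. Its log2 fold was 1.84 ± 0.37, with an adjusted p of 7.29e-06 in the authors' deposited table. Klf1 (chr8:84901928-84905295), which encodes an activator of adult beta globin that is largely restricted to erythroid cells, stood at 1.004 FPKM in Srf KO and 0.245 FPKM in WT in the authors' deposited table. Its log2 fold was 2.03 ± 0.48, with an adjusted p of 0.000214 in the authors' deposited table.

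Epor (chr9:21958899-21963576) stood at 0.434 FPKM in Srf KO and 0.0758 FPKM in WT, the lowest level of any member in both genotypes, in the authors' deposited table. Its log2 fold was 2.52 ± 0.73 with an adjusted p of 0.00301 in the authors' deposited table, and its 95% interval ran from 1.09 to 3.95, the widest of the 5 called members. In Srf KO, Gata1 was above 24.5% of tested genes, Klf1 above 18.4% and Epor above 9.04%. In WT, Gata1 was above 12.2% of tested genes, Klf1 above 6.62% and Epor above 1.05%. On the log2(FPKM + 1) scale, which damps low levels, the folds came to 0.85 for Gata1, 0.69 for Klf1 and 0.41 for Epor. All tested genes that averaged under 1 FPKM over the genotypes had a median log2 fold of 0.54, and 23.1% of them were called higher.

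The order of the levels was close in both genotypes, though no error stands behind a single level. In Srf KO it ran from Beta-s over Hbb-b2, Hba-a1, Hba-a2, Car1, Car2, Hbb-b1, Gata1 and Klf1 to Epor. In WT it was the same but for Car1, which stood below Car2 and Hbb-b1. Hbb-b2 lay above 96.7% of tested genes in Srf KO and 95.3% in WT, whereas Car1 lay above 71.2% in Srf KO and 35.1% in WT.

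**Figure D3:**
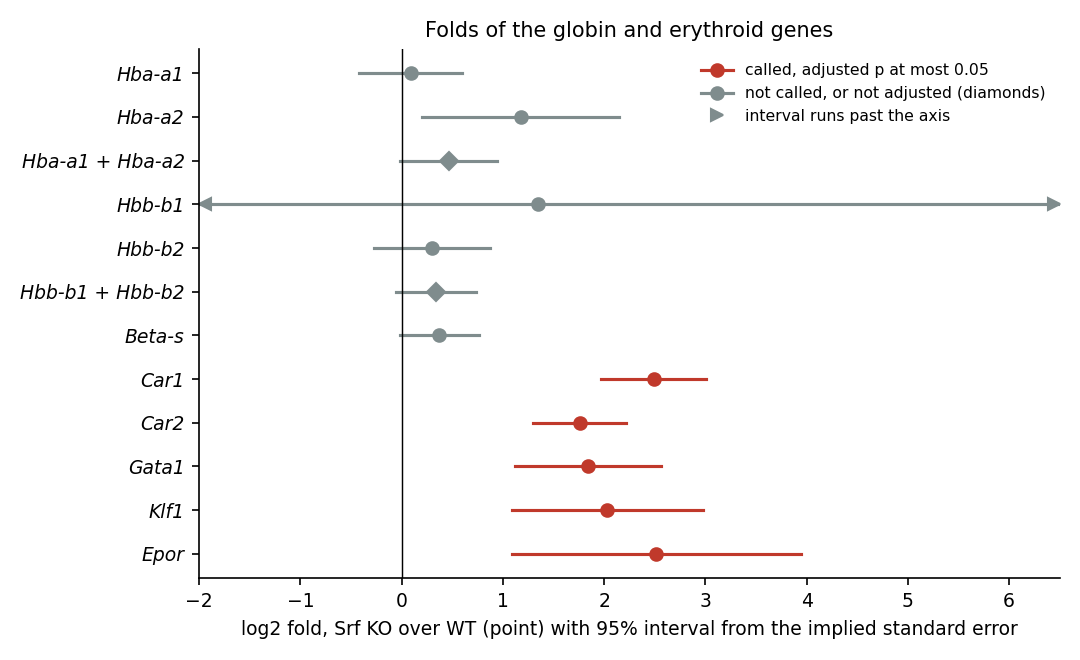
Log2 fold of Srf KO over WT (points) with the 95% interval from the implied standard error (lines), for each gene and, as diamonds, for the deposited sums of the alpha and of the beta copies. Red marks genes called by the authors' test; the interval of Hbb-b1 runs past both ends of the axis, and the intervals of the 5 called genes start at 1.09 or above.

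The 95% intervals of the 5 called genes all began at or above 1.09, and those of the alpha sum, the beta sum and Beta-s ended at 0.94, 0.73 and 0.76. The interval of the Hba-a2 row (0.20 to 2.15) overlapped the called genes. The difference between globin and other folds was not itself tested.

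Further genes were counted in lists, which leave out the members. Besides genes of red cells these take in all other globin and carbonic anhydrase genes of the table, whether or not red cells use them. Of the 116 listed genes in the table, 101 were tested, with 39 called higher and 16 lower in Srf KO. That is against 17.7% higher and 17.8% lower over all genes tested, and the median log2 fold was 0.51. The calls differed by level. Of the 29 tested that averaged under 1 FPKM, 15 were called higher and 0 lower, and of the 41 at 10 FPKM or more, 8 were called higher and 14 lower. Over all tested genes 23.1% under 1 FPKM were called higher and 4.23% lower, and at 10 FPKM or more 14.0% were called higher and 28.1% lower. The bands of level were chosen after the values were seen.

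Genes of the red cell membrane and its skeleton had the most calls toward Srf KO of these lists. Of 23 tested, 17 were called higher and 1 lower, with a median log2 fold of 1.40, against 17.7% higher and 17.8% lower over all genes tested. Many of these genes averaged under 1 FPKM, where 23.1% of all tested genes were called higher, 4.23% lower and the median log2 fold was 0.54. Ermap, an erythroblast membrane protein gene, stood at 1.52 FPKM in Srf KO and 0.362 FPKM in WT (log2 fold 2.07 ± 0.30, adjusted p = 3.26e-10) in the authors' deposited table. The water channel gene Aqp1 stood at 3.76 FPKM in Srf KO and 1.22 FPKM in WT (1.62 ± 0.27, adjusted p = 4.81e-08) in the authors' deposited table. Gypc, the glycophorin C gene, was also called higher, at 5.16 FPKM in Srf KO and 2.62 FPKM in WT (0.98 ± 0.25, adjusted p = 0.000775) in the authors' deposited table. Mgst3, a microsomal glutathione transferase gene, stood at 5.002 FPKM in Srf KO and 3.64 FPKM in WT and was not called (0.46 ± 0.32, adjusted p = 0.262) in the authors' deposited table. The single gene called lower was the most abundant, Epb4.1, the band 4.1 gene, which other blood cells express too, at 15.7 FPKM in Srf KO and 25.5 FPKM in WT (-0.70 ± 0.19, adjusted p = 0.00138) in the authors' deposited table.

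Transcription factors of red cells other than Gata1 and Klf1 split. Of 17 tested, 6 were called higher and 3 lower, with a median log2 fold of -0.10, against 17.7% higher and 17.8% lower over all genes tested. The most abundant were ones that other blood lineages use as well. Nfe2 stood at 211 FPKM in Srf KO and 268 FPKM in WT (-0.34 ± 0.18, adjusted p = 0.131) in the authors' deposited table, and Ikzf1 at 83.0 FPKM in Srf KO and 88.8 FPKM in WT (-0.10 ± 0.21, adjusted p = 0.755). Lmo2, a bridging partner of GATA1, rose to 68.6 FPKM in Srf KO, against 43.9 FPKM in WT (0.65 ± 0.20, adjusted p = 0.00481), in the authors' deposited table. Foxo3, a forkhead factor of late erythroid maturation and of many other cells, fell to 3.20 FPKM in Srf KO, against 14.1 FPKM in WT (-2.14 ± 0.22), with an adjusted p listed as 0 in the authors' deposited table. The other genes called lower, named after their values were seen, were Klf3 (-1.61 ± 0.20, adjusted p = 9.05e-14) and Lyl1 (-0.85 ± 0.19, adjusted p = 0.000113) in the authors' deposited table.

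Of 16 tested genes listed for erythropoietin receptor signalling, 3 were called higher and 8 lower, with a median log2 fold of -0.48. Over all genes tested the shares were 17.7% higher and 17.8% lower. At 10 FPKM or more, where the most abundant genes of this list lie, they were 14.0% higher and 28.1% lower. A gene of this list is also counted among those of heme synthesis and iron uptake. Stat5b, which encodes a transcription factor activated by the receptor, fell to 17.2 FPKM in Srf KO, against 38.7 FPKM in WT (-1.17 ± 0.20, adjusted p = 1.38e-07), in the authors' deposited table. The feedback inhibitor gene Socs3 (-1.40 ± 0.21, adjusted p = 2.53e-09) and the adaptor gene Sh2b3 (-1.05 ± 0.19, adjusted p = 1.01e-06) fell too in the authors' deposited table. Highest in level on the list were the phosphatase gene Ptpn6 (232 FPKM in Srf KO and 368 FPKM in WT), the kinase gene Lyn (109.9 FPKM in Srf KO and 169.7 FPKM in WT) and the kinase gene Pim1 (36.8 FPKM in Srf KO and 59.6 FPKM in WT), all called lower in the authors' deposited table. These are shared by many cytokine receptors of myeloid cells and stand far above Epor itself.

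Heme synthesis and iron uptake had 17 tested genes, with 7 called higher, 1 called lower and a median log2 fold of 0.56. The shares over all genes tested were again 17.7% higher and 17.8% lower. Glrx5, a gene of iron-sulphur cluster assembly, stood at 13.1 FPKM in Srf KO and 7.05 FPKM in WT (0.90 ± 0.26, adjusted p = 0.00251) in the authors' deposited table. The iron transporter gene Slc11a2 (0.86 ± 0.34, adjusted p = 0.0318) and the coproporphyrinogen oxidase gene Cpox (0.83 ± 0.25, adjusted p = 0.00362) rose as well in the authors' deposited table. Ppox, the next enzyme gene after Cpox, fell to 23.1 FPKM in Srf KO, against 40.8 FPKM in WT (-0.82 ± 0.19, adjusted p = 0.000182), in the authors' deposited table. Alas2, the erythroid form of the first enzyme, stood at 3.01 FPKM in Srf KO and 1.96 FPKM in WT and was not called (0.62 ± 0.30, adjusted p = 0.0964), and its widely used counterpart Alas1 stood at 50.5 FPKM in Srf KO and 56.6 FPKM in WT (-0.16 ± 0.18, adjusted p = 0.516), in the authors' deposited table. Slc25a37, the mitochondrial iron importer gene, stood at 29.0 FPKM in Srf KO and 37.6 FPKM in WT (-0.38 ± 0.18, adjusted p = 0.0944) in the authors' deposited table.

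Of 20 antioxidant and late erythroid genes, 6 were called higher and 3 lower, with a median log2 fold of 0.39. Among all genes tested 17.7% were called higher and 17.8% lower. Hebp1, a heme-binding protein gene, rose to 15.8 FPKM in Srf KO, against 1.44 FPKM in WT (3.46 ± 0.30), and the metallothionein gene Mt1 to 86.8 FPKM in Srf KO, against 9.97 FPKM in WT (3.12 ± 0.25), each with an adjusted p listed as 0 in the authors' deposited table. Hemgn, a nuclear protein gene of haematopoietic cells that GATA1 activates, rose to 2.36 FPKM in Srf KO, against 0.651 FPKM in WT (1.86 ± 0.31, adjusted p = 4.85e-08), in the authors' deposited table. Gpx1, a glutathione peroxidase gene, fell to 405 FPKM in Srf KO, against 601 FPKM in WT (-0.57 ± 0.18, adjusted p = 0.00886), in the authors' deposited table. Ucp2, a mitochondrial carrier gene, stood at 176 FPKM in Srf KO and 181 FPKM in WT (-0.04 ± 0.19, adjusted p = 0.897) in the authors' deposited table. Hebp1 and Mt1 are expressed in many tissues.

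**Figure D4:**
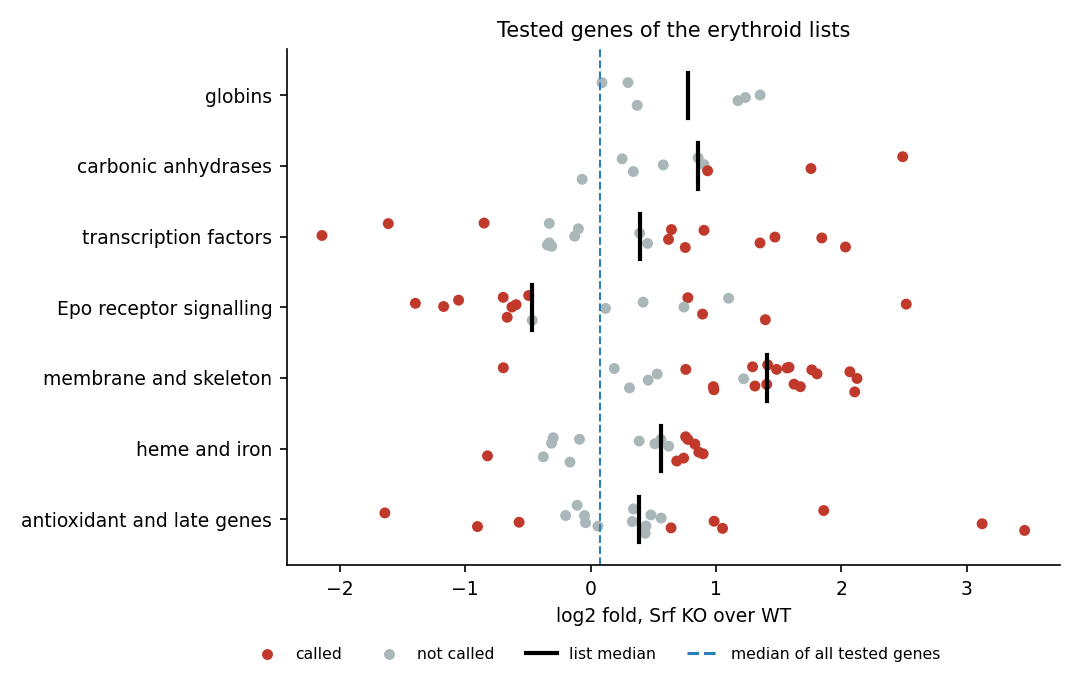
Log2 fold of Srf KO over WT for each tested gene of the erythroid lists, members included, with called genes in red, the list median as a black bar and the median over all tested genes (0.08) as a dashed line. The membrane and skeleton list lies mostly to the right, with a median of 1.40, and the erythropoietin (Epo) receptor signalling list mostly to the left, with a median of -0.47.

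Markers of other marrow cell types, some of which use Gata1, were counted beside these results. For comparison, 17.7% of all tested genes were called higher and 17.8% lower. Among tested genes that averaged under 1 FPKM, 23.1% were called higher and 4.23% lower. Of 9 tested erythroid markers, 7 were called higher and 0 lower, and they summed to 14.6 FPKM in Srf KO and 7.42 FPKM in WT. Of 7 megakaryocyte and platelet markers, 5 were called higher and 0 lower, summing to 48.8 FPKM in Srf KO and 6.25 FPKM in WT. Of 8 tested eosinophil, basophil and mast cell markers, 6 were called higher and 0 lower, summing to 122 FPKM in Srf KO and 61.8 FPKM in WT. Of 8 marrow macrophage markers, cells around which red cell precursors mature, 7 were called higher and 1 lower, summing to 102 FPKM in Srf KO and 52.6 FPKM in WT. None of these tested markers was at 0 in either genotype. In longer lists, 9 of 14 tested megakaryocyte genes were called higher and 0 lower, summing to 75.9 FPKM in Srf KO and 28.6 FPKM in WT. The longer macrophage list had 10 of 13 called higher and 2 lower, and summed to 296 FPKM in Srf KO and 279 FPKM in WT. The longer eosinophil, basophil and mast cell list had 8 of 12 called higher and 1 lower, yet summed to 320 FPKM in Srf KO and 380 FPKM in WT. The longer neutrophil list had 2 of 9 called higher and 4 lower. The platelet factor gene Pf4 stood at 39.2 FPKM in Srf KO and 2.68 FPKM in WT (3.87 ± 0.30), the basophil protease gene Mcpt8 at 46.0 FPKM in Srf KO and 14.0 FPKM in WT (1.71 ± 0.23), and Spic, a transcription factor gene of iron-recycling macrophages, at 8.08 FPKM in Srf KO and 1.65 FPKM in WT (2.29 ± 0.29), all called in the authors' deposited table. Other abundant genes of these lists were called lower or not called. Hdc, the histidine decarboxylase gene, fell to 188 FPKM in Srf KO, against 315 FPKM in WT (-0.75 ± 0.19, adjusted p = 0.000588), and the iron exporter gene Slc40a1 fell to 96.2 FPKM in Srf KO, against 153 FPKM in WT (-0.67 ± 0.18, adjusted p = 0.0017), in the authors' deposited table. The integrin gene Itgb3, second to Pf4 in its list, stood at 16.1 FPKM in both Srf KO and WT (adjusted p = 0.996), and Clec1b, a platelet receptor gene, at 5.40 FPKM in Srf KO and 4.70 FPKM in WT (0.20 ± 0.28, adjusted p = 0.604), neither called in the authors' deposited table. The part of these cells in the levels of Gata1 and of the other called members was not tested.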

How the data were processed

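Messenger RNA was measured in sorted bone marrow neutrophils. The genotype label put 2 samples in Srf KO and 2 in WT. The labels' protocols name the TruSeq RNA v2 kit, which does not keep the strand. The submitters' processing notes list CASAVA 1.8.1, TopHat2 2.0.0, Cufflinks 2.0.0 and mm10, and give no settings here. Per the file headers, the 4 tables cover genes, isoforms, start site groups and coding sequences, laid out as Cufflinks writes a comparison. FPKM values are as the authors deposited them, 1 per genotype. The fold and the test statistic, both kept as a score because they hold placeholders where a genotype is at 0, and the p-value and adjusted p are the authors' too, per the file headers. The fold is WT over KO there and was turned to Srf KO over WT.

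The authors' test was used as deposited, since no values per sample are in the tables. The threshold for a call was 0.05 on the adjusted p, which the authors set over all 12634 genes tested. Standard errors are the absolute fold over the absolute statistic, available for 12552 genes, and 95% intervals follow from them. Recomputing the p-values from the statistic gave the deposited ones within 2.75e-06. Starts count from 1. Alternatives were a threshold of 0.01, a filter at 1 FPKM, pseudocounts of 1 and 0.1, folds centred on the median, and folds adjusted for transcript length over 50 bins smoothed over 5, with lengths for 99.4% of genes; p-values were then recomputed and adjusted over all genes, which without any change of fold altered 7 calls. The refits were tested on simulated data. The members and the 11 gene lists were chosen with earlier results of these data known. All members were named, and genes from the lists were named out of the 3 most abundant tested genes and the 3 with the largest folds at 1 FPKM or more, besides a marker (Alas2) and genes stated as picked later. A gene that this rule names is not reported here. Of 192 listed names, 185 matched the table directly or through RefSeq synonyms. The software was matplotlib 3.10.9, pandas 2.3.3, numpy 2.4.6 and scipy 1.17.1 under Python 3.11.15.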

Additional observations from a re-analysis of the deposited data

How the results depend on the processing

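The main counts were of members called (5 higher and 0 lower) and of other listed genes called (39 higher and 16 lower). They stayed within 1.5 times under a threshold of 0.01, a filter at 1 FPKM, centred folds and length-adjusted folds. Under these, 4 to 5 members were called higher, and of the other listed genes 28 to 36 were called higher and 13 to 17 lower. Under length adjustment the share of all genes called higher was 14.6%. The log2 fold of the 4 summed globin rows, 0.40, lay between 0.39 and 0.41 with all globin rows, isoform rows or a pseudocount of 1. The isoform rows repeat the alpha transcripts at a second position and the pseudocount is small beside the sums, so neither could move the fold much. After length adjustment, an alternative chosen after seeing the data, the fold was 0.031. The cause of that change was not tested. Under the same adjustment Hba-a1 changed sign to -0.28 and Hba-a2 had 0.81, neither called, while Car1 kept 2.15, Car2 1.57, Gata1 1.68, Klf1 1.79 and Epor 2.32, all called. Hbb-b2 has no matched transcript length and took the shift of Hbb-b1 in the sum. No paired analysis was possible because the tables hold 1 pooled value per genotype, and leaving out each replicate could not be run for the same reason.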
